A study of Homo sapiens with 12 samples.

Results

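The cyclin-dependent kinase (CDK) inhibitors were examined in HK2 cells, an established line of human proximal tubular epithelial cells (TECs). The group was chosen by gene symbol and holds the 8 genes CDKN1A, CDKN1B, CDKN1C, CDKN2A, CDKN2B, CDKN2C, CDKN2D and CDKN3, out of 58278 genes listed in each library. All 8 passed the filter on low counts, as did 24342 genes in all. Messenger RNA was sequenced in 12 libraries, 2 for each of 6 groups. Control cells (Ctrl) were untreated, and TN cells had TNF-α (5 ng/mL) over 3 h. The other groups received the same TNF-α together with a short-chain fatty acid (SCFA) for 24 h, which was propionate at 15 mM (PRTN, added before TNF-α, and TNPR, added after it) or butyrate at 3 mM (BUTN, before, and TNBU, after). The series describes its samples as biological duplicates, and all come from 1 cell line. The general treatment text of the labels also mentions thapsigargin and JQ1, which no library's own label carries, and the groups follow those library labels. Neither cells given an SCFA without TNF-α nor cells kept for the longer time after TNF-α without an SCFA were analysed here, so the SCFA and the time since TNF-α cannot be told apart in TNPR and TNBU.

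CDK inhibitors hold back the enzymes that move a cell through its division cycle. The CIP/KIP proteins p21 (CDKN1A), p27 (CDKN1B) and p57 (CDKN1C) bind complexes of a CDK with its cyclin, among them cyclin E-CDK2. The INK4 proteins p16 (CDKN2A), p15 (CDKN2B), p18 (CDKN2C) and p19 (CDKN2D) are built of ankyrin repeats and bind CDK4 and CDK6 in place of the D-type cyclins, which keeps the retinoblastoma protein RB in its active, growth-restraining form. CDKN2A also encodes the unrelated protein p14ARF from another first exon, and CDKN3 encodes a phosphatase that acts on CDK2 and is expressed in dividing cells, so it bears the family's name without being a stoichiometric inhibitor. In the kidney, p21 and p16 are known as markers of arrested or senescent tubular cells after injury. HK2 cells were made with the papillomavirus genes E6 and E7, the second of which encodes a protein that binds RB, and this limits them as a model of these pathways. Butyrate and propionate are both known as inhibitors of histone deacetylases. CDKN1A is a classic gene induced by such inhibitors through GC boxes in its promoter, where the factors SP1 and SP3 bind.

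The promoters of 5 of the 6 members whose levels moved in all 4 SCFA groups are shown first, the other member being CDKN1C. Of the 8 members, 7 had an entry in the promoter table of RefSeq (build GRCh38.p14). Each sequence is the 250 bases just before the start of transcription, printed 5′ to 3′ on the strand of the gene, with each GC box (GGGCGG, searched on both strands, with overlapping matches counted singly) in capitals. CDKN1A (chr6:36678464-36678713, plus strand), CDKN2D (chr19:10568980-10569229, minus strand) and CDKN3 (chr14:54396757-54397006, plus strand) are the genes that rose, and CDKN1B (chr12:12717118-12717367, plus strand) and CDKN2B (chr9:22009306-22009555, minus strand) are genes that fell.
CDKN1A: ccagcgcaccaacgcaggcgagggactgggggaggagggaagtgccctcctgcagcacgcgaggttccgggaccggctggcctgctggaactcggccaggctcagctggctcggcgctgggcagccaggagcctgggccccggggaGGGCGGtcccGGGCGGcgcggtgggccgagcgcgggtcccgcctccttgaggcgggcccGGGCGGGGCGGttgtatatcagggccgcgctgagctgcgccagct
CDKN2D: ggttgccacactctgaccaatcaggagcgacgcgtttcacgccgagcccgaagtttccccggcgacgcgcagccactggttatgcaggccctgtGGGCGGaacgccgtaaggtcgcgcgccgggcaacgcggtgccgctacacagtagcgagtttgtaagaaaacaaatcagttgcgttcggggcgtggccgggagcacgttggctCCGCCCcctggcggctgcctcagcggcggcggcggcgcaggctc
CDKN3: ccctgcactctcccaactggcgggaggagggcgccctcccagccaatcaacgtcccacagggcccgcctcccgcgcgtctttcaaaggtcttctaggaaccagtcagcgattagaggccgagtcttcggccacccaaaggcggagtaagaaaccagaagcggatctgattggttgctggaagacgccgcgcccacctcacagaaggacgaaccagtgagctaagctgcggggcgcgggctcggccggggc
CDKN1B: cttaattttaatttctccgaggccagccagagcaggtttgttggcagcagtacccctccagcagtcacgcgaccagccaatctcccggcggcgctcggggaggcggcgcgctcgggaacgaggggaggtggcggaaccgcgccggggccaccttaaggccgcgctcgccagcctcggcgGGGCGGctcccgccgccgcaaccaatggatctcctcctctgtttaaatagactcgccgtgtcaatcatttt
CDKN2B: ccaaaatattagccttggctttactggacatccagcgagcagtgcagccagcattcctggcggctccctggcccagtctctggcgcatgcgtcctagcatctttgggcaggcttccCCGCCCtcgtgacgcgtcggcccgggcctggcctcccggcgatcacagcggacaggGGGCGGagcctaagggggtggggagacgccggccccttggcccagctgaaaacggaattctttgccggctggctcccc

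The CDKN1A window held 4 GC boxes, whose last bases lay 99, 89, 40 and 35 bases before the start. Of 35116 windows of the same kind, 42.6% held at least 1 GC box and 7.63% held at least 4. CDKN2D and CDKN2B held 2 each (at least 2 were found in 24.3% of all windows), CDKN1B held 1 and CDKN3 held 0. Both of the genes that fell and are shown here thus held at least 1 GC box, as did 2 of the 3 that rose. The CDKN3 window instead held 2 CCAAT boxes (CCAAT, in 32% of all windows) and 1 match to TTTGAA, the core of the cell cycle homology element (in 13.3%). CDKN1B also held 2 CCAAT boxes and CDKN2D held 1. None of these 5 windows held TATAAA, which was found in 10.7% of all windows. The RefSeq table gives CDKN2A 2 start sites, with 0 and 1 GC box, and CDKN2C 3 start sites, with 0, 5 and 1. A match of letters is a description and not a binding site, and binding was not measured.

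The expected counts, estimates of the reads from each gene, summed to 27269986 to 33851130 per library, and a member had from 131 to 9930 of them in a library, so that each was far above the level of 3 counts. Levels are given as CPM, a gene's count relative to the library total after scaling by TMM factors, with the SD of 2 libraries. Of 10 fixed proximal tubule markers, 6 had a mean of at least 1 CPM (CUBN, SLC5A2, AQP1, ANPEP, DPP4 and GGT1), LRP2, SLC34A1 and SLC22A8 were lower, and SLC22A6 had no counts in any library. Their summed level was 315 to 323 CPM in Ctrl, 273 to 299 in TN and 168 to 201 in the SCFA groups. The 9 epithelial markers summed to 1940 to 1959 CPM in Ctrl, 1918 to 1988 in TN and 2122 to 2722 in the SCFA groups. Of 10 leukocyte markers, 1 (CD14) had a mean of at least 1 CPM, with sums of 1.38 to 1.58 CPM in Ctrl, 1.22 to 1.45 in TN and 3.58 to 7.53 in the SCFA groups. Of 7 fibroblast markers, 3 passed that level, and the sum was 59.4 to 60.4 CPM in Ctrl, 53.2 to 55.3 in TN and 204 to 255 in the SCFA groups. None of 6 endothelial markers did, with sums of 0.275 to 0.359, 0.372 to 0.467 and 2.70 to 4.47 CPM. These lists moved with the SCFAs, and their part in the results was not tested. In bulk RNA, fewer cells expressing a gene and less RNA per cell cannot be told apart.

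SCFA treatment went with a changed set of CDK inhibitor transcripts, and the changes ran in both directions. CDKN1A, CDKN2D and CDKN3 were higher than in TN in each of the 4 SCFA groups, whereas CDKN1B, CDKN1C and CDKN2B were lower in each of them. CDKN2A was lower in 3 of the 4 groups by the call used here (more than 1.5-fold, with limma-voom's adjusted p below 0.05), and CDKN2C was called in none. The call was thus made for 3 of 8 members as higher in every SCFA group, where of all tested genes 23.9% were called higher in PRTN, 23.1% for BUTN, 24.9% for TNPR and 25% in TNBU. For lower calls the members numbered 4 in PRTN, 3 for BUTN, 4 for TNPR and 4 in TNBU, against 16.7%, 14.8%, 16.9% and 16.5% of all genes. In either direction the members called numbered 7, 6, 7 and 7, against 40.6%, 37.9%, 41.8% and 41.6% of all genes. The median log2 fold change of the 8 members was -0.20, -0.25, -0.23 and -0.16, and that of all genes was 0.09, 0.08, 0.12 and 0.09. Calls were therefore common among all genes. Of the 24342 genes, 18.4% were higher in all 4 groups and 11.9% lower in all 4, and 3 members fell in each of these classes. Among the lower ones, CDKN1B in BUTN lay at the fold threshold (1.5002-fold), and its call there was lost in 9 of 22 alternative settings. All 4 comparisons share the TN libraries, so they are not independent of each other.

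**Figure D1:**
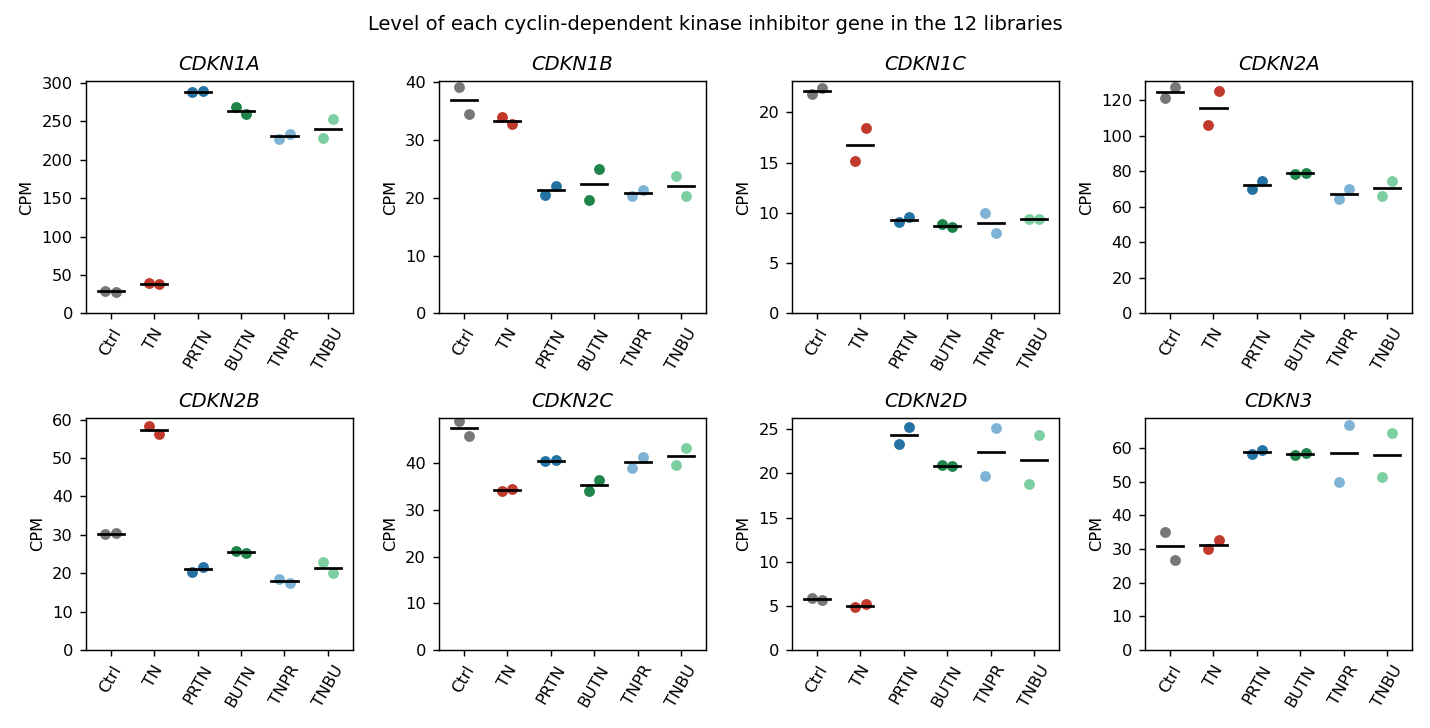
Level of each inhibitor gene in CPM (y axis, from 0) in the 12 libraries, by group (x axis). Points are single libraries and the black line is the mean of the 2 libraries of a group. CDKN1A stood at 227 to 289 CPM in the 8 SCFA libraries and at 28.4 to 38.9 in the other 4, and CDKN2B was highest in TN, at 58.4 and 56.4.

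TNF-α alone was examined first. CDKN2B, which encodes p15 and is best known as a target of TGF-β, was the member called, 1 of 8 where 0.764% of all genes were called higher and 1.3% in either direction. It was at 30.1 and 30.6 CPM in the Ctrl libraries and at 58.4 and 56.4 in TN, so that the groups did not overlap. This was a log2 fold change of 0.92 (1.89-fold, standard error 0.07, adjusted p = 3.33e-05 from limma-voom). CDKN1A passed the adjusted p and missed the fold threshold, at 29.4 and 28.4 CPM in Ctrl and 38.9 and 38.3 in TN, a log2 difference of 0.42 (SE 0.08, limma-voom adjusted p = 0.00967). In the same way CDKN2C differed by -0.47 (SE 0.07, limma-voom adjusted p = 0.00374), with 49.0 and 45.9 CPM in Ctrl and 34.1 and 34.5 in TN. CDKN1C was at 21.8 and 22.4 CPM in Ctrl and at 15.2 and 18.4 in TN, which was not called (log2 difference -0.40, adjusted p = 0.0599 from limma-voom). The intervals for CDKN1B (-0.38 to 0.09), CDKN2A (-0.29 to 0.07), CDKN2D (-0.69 to 0.27) and CDKN3 (-0.32 to 0.38) on the log2 scale all included 0. No member was called lower, against 0.534% of all genes, and edgeR and DESeq2 likewise called 0, while 2 members were lower at an unadjusted p under 0.05 in limma-voom, CDKN1C and CDKN2C.

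With SCFAs, CDKN1A showed the largest change of the 8. The gene (ENSG00000124762.13 in the files, GRCh38 chromosome 6, 36676460 to 36687337, plus strand, 3 exons in its canonical transcript) encodes p21, an inhibitor induced after DNA damage. It was at 287 and 289 CPM in PRTN, 268 and 259 for BUTN, 227 and 234 for TNPR, and 228 and 252 in TNBU. Every SCFA library thus stood far above every Ctrl and TN library. The mean rose from 38.6 ± 0.403 CPM (SD, n = 2) in TN to 288 ± 1.21 in PRTN (SD, n = 2), a log2 fold change of 2.90 (standard error 0.06, 7.46-fold, adjusted p = 6.57e-11 from limma-voom). In BUTN it was 264 ± 6.03 CPM (SD, n = 2) and the log2 fold change was 2.77 (6.82-fold), in TNPR 230 ± 4.96 (SD, n = 2) and 2.58 (5.96-fold), and in TNBU 240 ± 16.9 (SD, n = 2) and 2.64 (6.22-fold), with adjusted p from 7.15e-11 to 1.05e-10 from limma-voom. Against Ctrl the rise was 9.97-fold in PRTN, 9.11-fold for BUTN, 7.96-fold for TNPR and 8.30-fold in TNBU. Of all 24342 genes tested, 6.92% to 9.35% had a higher log2 fold change against TN than CDKN1A, and of the 10194 with a mean of at least 10 CPM, 0.952% to 1.26% did.

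CDKN2D (ENSG00000129355.6, chromosome 19, 10566460 to 10569059, minus strand, 2 exons), which encodes the INK4 protein p19, was the least abundant member in untreated cells. It was at 5.91 and 5.70 CPM in Ctrl and 4.88 and 5.17 in TN, and at 23.3 and 25.3 in PRTN, 20.96 and 20.8 for BUTN, 19.7 and 25.1 for TNPR, and 18.7 and 24.4 in TNBU. The SCFA libraries again did not overlap with the rest, although the replicates lay further apart when the SCFA came after TNF-α. In both of those groups replicate 2 was the higher. The rise over TN was 4.81-fold in PRTN, 4.14-fold for BUTN, 4.40-fold for TNPR and 4.25-fold in TNBU (log2 fold changes 2.27, 2.05, 2.14 and 2.09, standard errors 0.18 to 0.19, adjusted p from 4.23e-07 to 1.33e-06 from limma-voom). Of all genes tested, 10.7% to 13.5% had a higher log2 fold change than CDKN2D.

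CDKN3 (ENSG00000100526.19, chromosome 14, 54396849 to 54420218, plus strand, 8 exons) rose less. The phosphatase gene was at 34.9 and 26.6 CPM in Ctrl and 29.9 and 32.6 in TN. It reached 58.1 and 59.3 CPM in PRTN, 57.8 and 58.5 for BUTN, 50.0 and 66.9 for TNPR, and 51.5 and 64.3 in TNBU. The log2 fold changes over TN were 0.91, 0.90, 0.89 and 0.88 in that order (standard errors 0.15, adjusted p from 0.000211 to 0.00029 from limma-voom). The replicates lay far apart in TNPR and TNBU, with replicate 2 the higher in each group. Each of them still exceeded all 4 libraries without an SCFA.

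**Figure D2:**
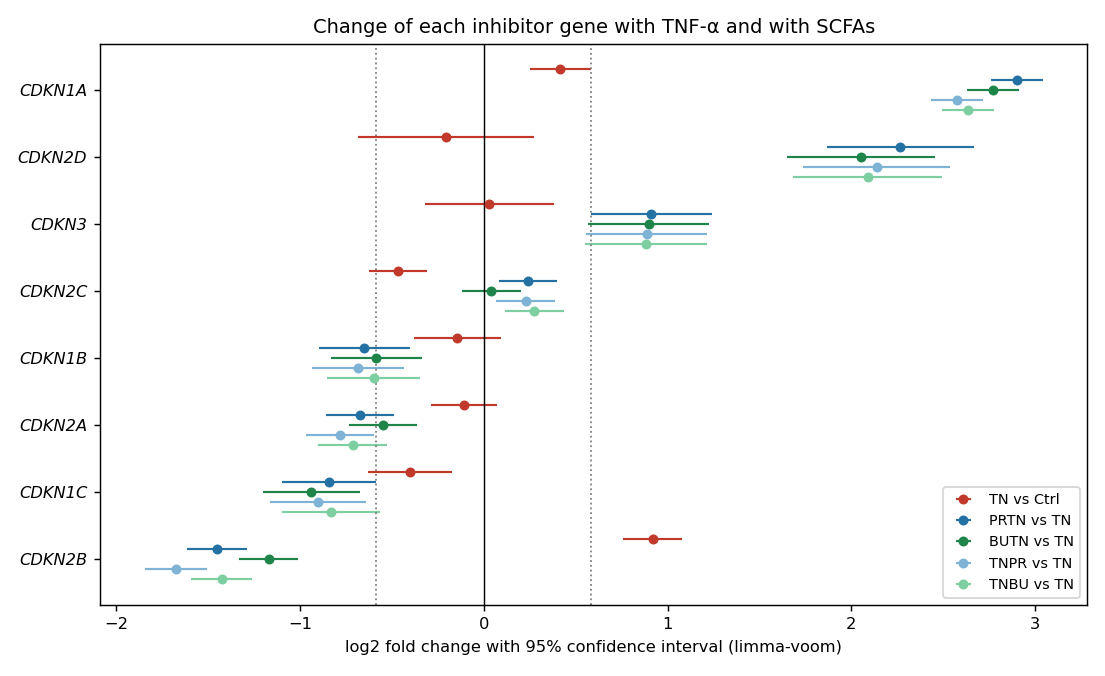
Log2 fold change of each inhibitor gene (x axis) with its 95% confidence interval from limma-voom, for TN against Ctrl and each SCFA group against TN (colours). Dotted lines mark a fold change of 1.5 in either direction. CDKN1A and CDKN2D lie between 2.05 and 2.90 in the SCFA groups, and CDKN2B lies at 0.92 with TNF-α and at -1.67 to -1.17 with the SCFAs.

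CDKN2B (ENSG00000147883.10, chromosome 9, 22002903 to 22009305, minus strand, 2 exons) fell most relative to TN, though not relative to Ctrl. The gene that TNF-α had raised was at 20.3 and 21.7 CPM in PRTN, 25.7 and 25.3 for BUTN, 18.5 and 17.4 for TNPR, and 22.9 and 19.9 in TNBU. All 8 SCFA libraries were below the Ctrl libraries as well as below TN. Relative to TN the log2 fold change was -1.45 in PRTN, -1.17 for BUTN, -1.67 for TNPR and -1.43 in TNBU (standard errors 0.07 to 0.08, adjusted p from 4.39e-09 to 6.59e-08 from limma-voom). These falls and the rise with TNF-α rest on the same TN libraries, so the comparison with Ctrl is given beside them. Against Ctrl, CDKN2B was called lower in TNPR (log2 fold change -0.76, adjusted p = 5.44e-06 from limma-voom), while the differences of -0.53 in PRTN, -0.25 in BUTN and -0.51 in TNBU passed the adjusted p and missed the fold threshold.

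CDKN2A (ENSG00000147889.17, chromosome 9, 21967752 to 21995301, minus strand, 3 exons) lies beside CDKN2B. The deposited value is a sum over the transcripts for p16 and for p14ARF, and the 2 products cannot be told apart in it. It was at 121 and 128 CPM in Ctrl and 106 and 125 in TN, and at 70.3 and 74.6 in PRTN, 78.6 and 79.2 for BUTN, 64.7 and 69.9 for TNPR, and 66.3 and 74.7 in TNBU. No SCFA library reached the level of any library without an SCFA. The gene fell relative to TN in PRTN (log2 fold change -0.67, adjusted p = 2.12e-05), TNPR (-0.78, adjusted p = 5.86e-06) and TNBU (-0.71, adjusted p = 1.44e-05 from limma-voom). In BUTN the difference of -0.55 (SE 0.08, limma-voom adjusted p = 0.000127) missed the fold threshold. The TN replicates decide this, since without TN replicate 1 the value was -0.69 and called, and without TN replicate 2 the value in PRTN was -0.58 and not called. Against Ctrl, CDKN2A was lower in all 4 SCFA groups, by log2 fold changes of -0.78, -0.66, -0.89 and -0.82.

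The expected counts of CDKN2A were whole numbers in 2 of 12 libraries and those of CDKN2B in 0, whereas the other 6 members had whole numbers in all 12. A value that is not whole is one in which RSEM assigned reads in part, so the levels of these neighbours are less certain than those of the other members. On the other strand, both genes are overlapped by the non-coding gene CDKN2B-AS1, at 1.81 to 3.46 CPM, and CDKN1B is overlapped by GPR19, at 0.931 to 3.19 CPM. The libraries were stranded, but the strand setting of the count is not given in the sources used here.

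Of the CIP/KIP genes, CDKN1B and CDKN1C moved the opposite way to CDKN1A. CDKN1C (ENSG00000129757.12, chromosome 11, 2883213 to 2885775, minus strand, 4 exons) is an imprinted gene, expressed from the maternal copy, whose product p57 acts mainly during development. It was at 9.06 and 9.61 CPM in PRTN, 8.88 and 8.58 for BUTN, 9.95 and 7.996 for TNPR, and 9.42 and 9.36 in TNBU, all below the 15.2 and 18.4 CPM of TN. The log2 fold change was -0.84 in PRTN, -0.94 for BUTN, -0.90 for TNPR and -0.83 in TNBU (standard errors 0.12, adjusted p from 2.85e-05 to 7.69e-05 from limma-voom). Against Ctrl the falls were larger, at -1.24, -1.34, -1.30 and -1.23. CDKN1B (ENSG00000111276.10, chromosome 12, 12685498 to 12722369, plus strand, 3 exons) encodes p27, whose amount is largely set by its breakdown through SKP2. It was at 39.2 and 34.6 CPM in Ctrl and 34.0 and 32.8 in TN, and at 20.5 and 22.1 in PRTN, 19.7 and 24.995 for BUTN, 20.3 and 21.3 for TNPR, and 23.9 and 20.3 in TNBU. The groups with and without SCFAs did not overlap. The log2 fold changes of -0.65, -0.59, -0.68 and -0.60 relative to TN (standard errors 0.11 to 0.12, adjusted p from 0.000239 to 0.000801 from limma-voom) lay close to the fold threshold. In BUTN the fall was 1.5002-fold, and its call was lost in 9 of 22 alternatives. Among these were edgeR, DESeq2 and scaling by library size alone (-0.43), and without BUTN replicate 1 the value was -0.45. In TNBU the call was lost in 4 of 22 alternatives, DESeq2 among them, and without TNBU replicate 2 the value was -0.48.

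CDKN2C (ENSG00000123080.10, chromosome 1, 50960745 to 50974634, plus strand, 2 exons), which encodes p18, was the member with no call in any comparison. It was at 40.4 and 40.7 CPM in PRTN, 34.1 and 36.4 for BUTN, 38.9 and 41.4 for TNPR, and 39.7 and 43.3 in TNBU, between the levels of Ctrl and TN or at the level of TN. The log2 difference from TN was 0.24 (95% interval 0.08 to 0.40) in PRTN, 0.04 (-0.12 to 0.20) for BUTN, 0.23 (0.07 to 0.39) for TNPR and 0.27 (0.11 to 0.44) in TNBU. Those of PRTN, TNPR and TNBU passed the adjusted p and missed the fold threshold. Against Ctrl the differences were -0.23, -0.43, -0.24 and -0.19 in the same order of groups. All of these passed the adjusted p (0.000252 to 0.035 from limma-voom) and missed the fold threshold.

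Against Ctrl, 3 of 8 members were called higher in all 4 SCFA groups, namely CDKN1A, CDKN2D and CDKN3, where 22.6% (PRTN), 22% (BUTN), 23.6% (TNPR) and 23.6% (TNBU) of all genes were. Lower calls numbered 3, 3, 4 and 3, against 16.9%, 14.9%, 16.8% and 16.5% of all genes (39.4%, 36.9%, 40.4% and 40% in either direction), and comprised CDKN1B, CDKN1C and CDKN2A in every group and CDKN2B in TNPR. These comparisons share the Ctrl libraries.

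Levels of different genes were compared after division by the length of the canonical transcript (GENCODE release 44), as CPM per kb. In Ctrl, CDKN2A was the most abundant inhibitor transcript at 127 ± 4.69 CPM per kb (SD, n = 2), followed by CDKN2C at 47.6, CDKN3 at 36.6, CDKN1B at 15.3, CDKN1A at 13.7, CDKN1C at 12.5, CDKN2B at 7.88 and CDKN2D at 4.07. No neighbours in this order overlapped between libraries, but the order below CDKN2A depends on the lengths used. With the merged length of all annotated exons, an alternative chosen after seeing the data, CDKN3 (16.8 CPM per kb) came before CDKN2C (15.7), and CDKN1B (3.99) came after CDKN1A (9.65), CDKN1C (8.91) and CDKN2B (7.59). In TN the order by canonical length began with CDKN2A at 118 ± 13.7, CDKN3 at 37.1 and CDKN2C at 34.4 CPM per kb. With the merged length, CDKN2B (14.4) and CDKN1A (12.9) came before CDKN2C (11.4) in TN. In each SCFA group CDKN1A came first, at 136 ± 0.572 in PRTN, 125 ± 2.85 for BUTN, 109 ± 2.34 for TNPR and 114 ± 8.005 CPM per kb in TNBU (SD, n = 2 in each). By canonical length CDKN2A followed at 74.0 CPM per kb in PRTN and 80.7 for BUTN, and overlapped with CDKN3 for TNPR (68.8 and 69.5) and in TNBU (72.1 and 68.8). At the low end CDKN2B and CDKN1C overlapped in PRTN, TNPR and TNBU. With the merged length CDKN1A was again first in each SCFA group, but CDKN3 came before CDKN2A in each. In PRTN these 2 were at 32.1 and 18.6 CPM per kb, and for BUTN at 31.8 and 20.3. CDKN1B was then the lowest member in each SCFA group.

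**Figure D3:**
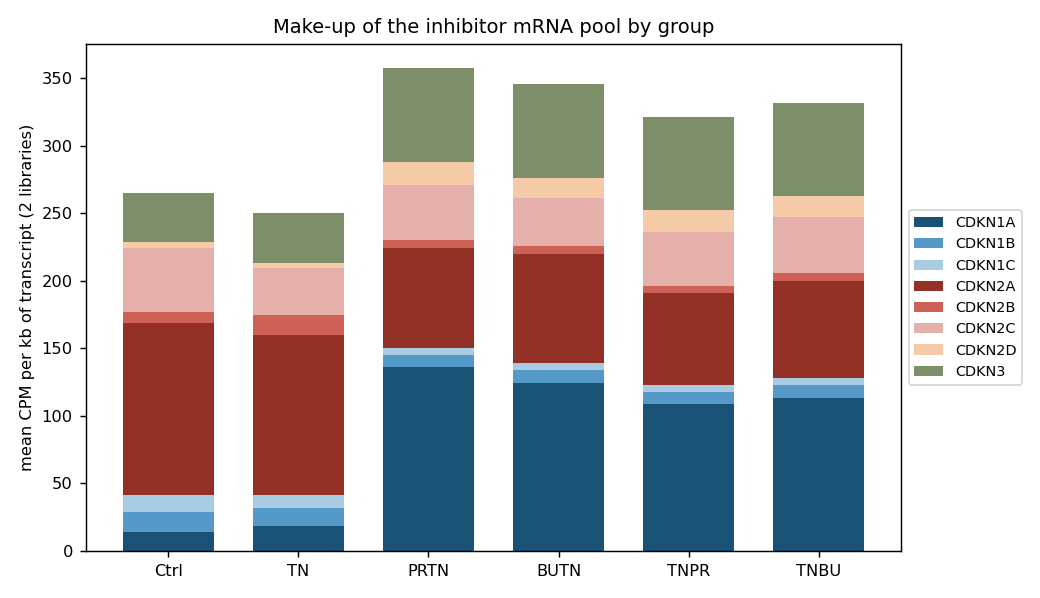
Mean level of the 8 inhibitor transcripts in CPM per kb of canonical transcript (y axis, stacked bars from 0, 2 libraries per group) in the 6 groups (x axis). CDKN2A makes up 48.1% of the bar in Ctrl and 20.7% to 23.4% in the SCFA groups, and CDKN1A makes up 5.16% in Ctrl and 33.8% to 38.1% in the SCFA groups.

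The ratio of CDKN1A to CDKN2A, both in CPM per kb, was 0.112 and 0.103 in the Ctrl libraries and 0.169 and 0.141 in TN. It was 1.89 and 1.79 in PRTN, 1.58 and 1.51 for BUTN, 1.62 and 1.55 for TNPR, and 1.59 and 1.56 in TNBU. The order of both genes was thus turned over in all 8 SCFA libraries. The size of the ratio depends on the lengths used, and with the merged exon length the mean was 0.301 in Ctrl, 0.436 in TN and 4.33 to 5.17 in the SCFA groups, with the same gene on top in each group. The summed level of the 8 members was 238 to 269 CPM per kb in Ctrl and TN and 304 to 362 in the SCFA libraries.

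Propionate and butyrate were given at different doses (15 mM and 3 mM), so the tests below compare the treatments as given and not the compounds at matched dose. For the 8 members at each of the 2 times, 0 of 8 were called, against 0.168% of all genes in PRTN vs BUTN (0.0411% higher, 0.127% lower) and 0.00822% in TNPR vs TNBU. edgeR and DESeq2 also called 0, and at an unadjusted p under 0.05 in limma-voom CDKN1A and CDKN2C were higher and CDKN2B lower in PRTN than for BUTN, and CDKN2B was lower for TNPR than in TNBU. The difference in CDKN2B was -0.28 on the log2 scale (95% interval -0.45 to -0.11, adjusted p = 0.135 from limma-voom) before TNF-α and -0.25 (-0.43 to -0.06, adjusted p = 0.447) after it, with lower values in both propionate groups. For CDKN1A the difference was 0.13 (0.01 to 0.25, adjusted p = 0.32 from limma-voom) and -0.06 (-0.18 to 0.06, adjusted p = 0.794). The widest intervals belonged to CDKN3, at -0.29 to 0.32 and -0.30 to 0.31, so differences of that size in either direction are not excluded by these data.

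The time of addition was compared for each SCFA. For the later against the earlier addition, 0 of 8 members were called for propionate (0.16% of all genes, 0.0534% higher and 0.107% lower) and 0 of 8 for butyrate (0.267%, 0.0945% higher and 0.173% lower), and edgeR and DESeq2 called 0 for both. At an unadjusted p under 0.05 in limma-voom 2 members were lower for propionate, CDKN1A and CDKN2B, and for butyrate 2 were lower, the same 2, and 1 was higher, CDKN2C. CDKN1A was at 227 and 234 CPM in TNPR against 287 and 289 in PRTN, a log2 difference of -0.32 (95% interval -0.45 to -0.20, adjusted p = 0.038 from limma-voom), which passed the adjusted p and missed the fold threshold. The adjusted p was under 0.05 in 6 of 21 other fits and ran from 0.000116 to 0.353 over them. In TNBU against BUTN it was -0.13 (-0.26 to -0.01, adjusted p = 0.298 from limma-voom). CDKN2B was lower by a like amount in both (-0.22 and -0.26, adjusted p = 0.351 and 0.182). Whether the change with time differed between the SCFAs was tested as an interaction, for which 0 members and 0% of all genes were called in limma-voom, with 2 members (CDKN1A and CDKN2C) under an unadjusted p of 0.05 and 0 called by edgeR or DESeq2.

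The partners of the inhibitors were then counted from fixed lists. Of all genes, 23.9%, 23.1%, 24.9% and 25% were called higher than TN in PRTN, BUTN, TNPR and TNBU. Lower calls made up 16.7%, 14.8%, 16.9% and 16.5%. Among 5 CDK genes, CDK4 and CDK6, the kinases that INK4 proteins bind, fell in all 4 SCFA groups relative to TN, and none rose. Relative to Ctrl, fewer of the 5 were called lower, 1 in PRTN, 0 for BUTN, 1 for TNPR and 1 in TNBU. Of all genes, 16.9%, 14.9%, 16.8% and 16.5% were called lower than Ctrl in these groups. Untreated cells had a CDK6 mean of 318 ± 29.1 CPM, below the 406 ± 16.1 CPM of TN (SD, n = 2 each). That difference was not called. The CDK6 means of the SCFA groups were 241 to 270 CPM, so its fall was smaller when measured from untreated cells. CDK4 had 299 ± 10.9 CPM in TN (SD, n = 2), 183 ± 1.31 in PRTN and 195 ± 0.41 for BUTN (SD, n = 2 each), with log2 fold changes of -0.81 to -0.62 over the 4 groups, and CDK6 had -0.75 to -0.60. The values of CDK2, the main target of p21 and p27, were 0.37 to 0.42 and were not called. The 9 cyclins were divided, with 3 called higher and 3 lower in every SCFA group. CCNA1, an A-type cyclin of low level here, rose by 2.41 to 2.81 on the log2 scale, CCNE1, the partner of CDK2 at the start of DNA replication, by 1.05 to 1.18, and CCND3, a partner of CDK4 and CDK6, by 0.89 to 1.25. The mitotic cyclins fell, CCNB1 with log2 fold changes of -1.74 to -1.29, CCNB2 with -1.48 to -1.15 and CCNA2 with -1.32 to -1.09. For CCNB1 the TN mean was 172 ± 4.81 CPM and the TNPR mean 51.7 ± 1.97 CPM (SD, n = 2 each). TNF-α alone raised CCND1 (log2 fold change 0.64, adjusted p = 0.000406 from limma-voom), the D-type cyclin best known as a target of growth signals.

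Of 13 genes of the RB family and the E2F factors, 2 were called higher and 3 lower in PRTN, 0 and 3 for BUTN, 2 and 5 for TNPR, and 1 and 4 in TNBU. Among all genes the shares were 23.9% and 16.7%, 23.1% and 14.8%, 24.9% and 16.9%, and 25% and 16.5%. With 13 genes these counts are small, and the comparisons share the TN libraries, so no difference from all genes is read from them. E2F3, an activator of replication genes, fell in all 4 groups (log2 fold changes -1.06 to -0.90), as did RBL1, which encodes the RB relative p107 (-0.90 to -0.73), and E2F5 (-0.80 to -0.72). Of 10 genes for parts of the ubiquitin ligases that mark p21 and p27 for breakdown, 4 were lower and 1 higher in each SCFA group. The same shares of all genes stand beside these counts. CUL1, the scaffold of the SCF ligase, had log2 fold changes down to -1.82, with CUL4A down to -1.08 and RBX1 at -0.98 to -0.81, whereas CUL4B rose by 0.99 to 1.10. SKP2, the subunit that recognises p27, was at 0.30 to 0.42 and was not called.

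Among 20 proliferation markers, 2 were called higher in every SCFA group and 9, 8, 9 and 9 lower in PRTN, BUTN, TNPR and TNBU. In these comparisons 23.1% to 25% of all genes were called higher and 14.8% to 16.9% lower. The median log2 fold change was -0.34, -0.36, -0.40 and -0.35. The mitotic kinase genes AURKA (-1.84 to -1.47) and PLK1 (-1.59 to -1.15) and the ubiquitin-conjugating enzyme gene UBE2C (-1.52 to -1.03) had the largest falls, while TK1 (0.76 to 1.22) and RRM2 (0.91 to 1.10), which supply deoxynucleotides, rose. The other markers, 9, 10, 9 and 9 of the 20, were not called. CDKN3 thus rose, as did TK1, RRM2 and CCNE1, while CCNB1, AURKA and PLK1 fell in the same libraries.

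Of 19 factors known to act on promoters of inhibitor genes, 4, 4, 3 and 4 were called higher in PRTN, BUTN, TNPR and TNBU. The shares of all genes called higher were 23.9%, 23.1%, 24.9% and 25%, so higher calls were not more common in this list. FOXO1, a factor that can induce CDKN1A and CDKN1B, had 0.29 ± 0.199 CPM in TN against 3.38 ± 0.134 in PRTN (SD, n = 2 each), and its log2 fold change was 3.52 to 3.62 over the 4 groups. TP73 rose by 2.50 to 2.95 and KLF4 by 0.59 to 0.97.

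**Figure D4:**
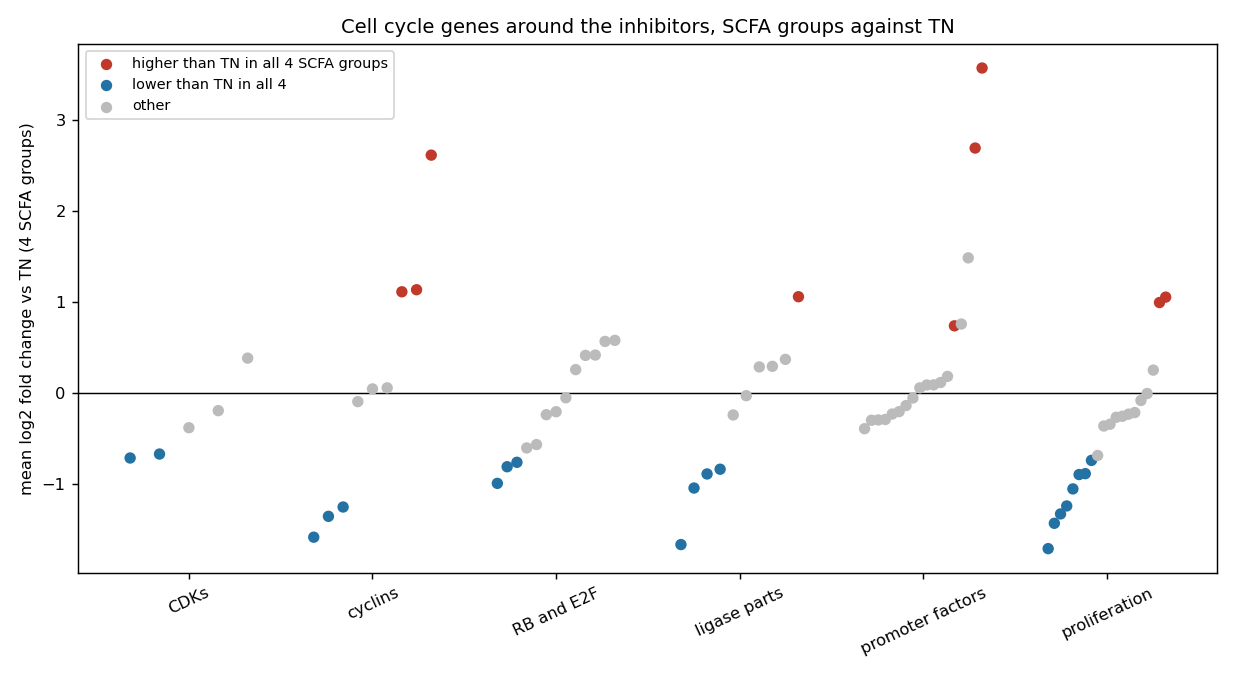
Mean log2 fold change against TN over the 4 SCFA groups (y axis) for the genes of 6 fixed lists (x axis, genes sorted by value within a list). Red points were called higher in all 4 groups, blue points lower in all 4, and grey points in neither. Cyclins hold 3 red and 3 blue points, and of the CDKs 2 are blue.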

How the data were processed

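Messenger RNA of HK2 cells was sequenced as 12 libraries in 6 groups of 2, assigned from the library labels. The authors prepared stranded mRNA libraries, aligned the reads to GRCh38 with STAR (version 2.6.1a per the labels) and deposited RSEM expected counts per gene of GENCODE release 26, which are estimated counts that were neither scaled nor filtered, and 19.3% of which are not whole. The RSEM version and strand setting are not given in the sources used here.

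The study filtered on the geometric mean of the expected counts. Here 1 was added to each count before taking it and subtracted after, which is a choice of this work, and genes at 1 or more were kept, which removed 33936 of 58278. The geometric mean without the added 1 keeps 19096 and was an alternative. TMM factors came from edgeR 4.0.16, and limma 3.58.1 in R 4.3.3 (voom weights, 1 mean per group, all 12 libraries) gave 14 contrasts. Benjamini-Hochberg adjustment ran over the 24342 kept genes, and genes were called when they changed more than 1.5-fold with an adjusted p below 0.05. Counts were rounded for edgeR's quasi-likelihood test and DESeq2 1.42.0 only. The fit was tested on simulated data in which few genes changed, in TN against Ctrl only. That test therefore does not cover the SCFA comparisons, where far more genes were called. The p-values of limma-voom rest on the spread between the 2 samples of a group, pooled over all 6 groups and moderated across genes. Positions and lengths are from GENCODE release 44, matched by gene name, and promoters from RefSeq.

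The members and lists were chosen with earlier results of these data known. All members were named. Per list, up to 3 rises and 3 falls called in all 4 SCFA groups with a mean of at least 1 CPM were named by size, and per member the 3 genes with the highest Pearson r of log2(CPM + 0.5). CDK2, SKP2, CCND1, MTAP, CDKN2B-AS1, CDKN2A-DT and KCNQ1OT1 were named for their roles or places after values were seen. The alternatives were 2 other scalings, 3 other filters, edgeR, DESeq2, the compared groups alone, the replicate number as a block, a 2-fold threshold and leaving out each library. Results for 1 gene and 1 list are not reported here.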

Additional observations from a re-analysis of the deposited data

Results flagged for a closer look

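CDKN1A passed the adjusted p threshold between the later and the earlier addition of propionate, by a test of the difference itself. The log2 difference of TNPR and PRTN was -0.32 (adjusted p = 0.038 from limma-voom over all genes), with both TNPR libraries (227 and 234 CPM) below both PRTN libraries (287 and 289 CPM). The difference stayed under the fold threshold of 1.5. It was lower in TNPR in each of 21 other fits (-0.346 to -0.306), but the adjusted p was under 0.05 in 6 of them and ran from 0.000116 (DESeq2) to 0.353 (without PRTN replicate 1), so the call depends on the fit. The same contrast for butyrate gave -0.13 (adjusted p = 0.298 from limma-voom), and the interaction of timing with the SCFA was -0.19 (95% interval -0.36 to -0.02, adjusted p = 1), so a difference between the SCFAs in this respect was not shown.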

How the results depend on the processing

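Of 2464 values of a member in a comparison under an alternative, 2365 kept their direction and their side of the call, 46 were no longer called, 2 became called and 51 changed sign. The sign changes fell in 25 member and comparison pairs, none called before or after, with a log2 difference of at most 0.166 as reported. With a 2-fold threshold, 0 members were called in TN vs Ctrl, and 3 in each SCFA group against TN (CDKN1A, CDKN2D and CDKN2B) and against Ctrl (CDKN1A, CDKN2D and CDKN1C). The shares of all genes at the 2-fold threshold are not given here, so these counts were not compared with all genes. The same holds for the counts below with 1 library left out. Scaling by library size alone moved the median of all genes by 0.156, 0.153, 0.173 and 0.196 on the log2 scale in PRTN, BUTN, TNPR and TNBU vs TN, and turned the split of calls in PRTN vs TN from 5824 higher and 4057 lower to 6785 and 3127. Under it CDKN1B was called in none of the 4 groups vs TN (-0.49, -0.43, -0.51 and -0.40), and CDKN2A was lost in PRTN and TNBU vs TN (-0.52 each) and in BUTN vs Ctrl (-0.56). Leaving out 1 library at a time gave 6 to 7 called members in PRTN vs TN, 5 to 7 in BUTN vs TN, 7 in TNPR vs TN, 6 to 7 in TNBU vs TN and 1 in TN vs Ctrl. Without TNBU replicate 1, CDKN2B was called lower in TNBU vs Ctrl (-0.63).

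The main fit did not treat samples of the same replicate number as pairs. Deviations of same-numbered libraries correlated at -0.0791 to 0.240 over 15 pairs of groups, with 1 over 0.1. Handling shared between single groups was not tested. With the replicate number as a block, 5 members in place of 6 were called in BUTN vs TN, where CDKN1B was at -0.58, and the number called was the same in the other 13 comparisons. With 2 libraries in a group, the intervals limit what can be seen between propionate and butyrate.

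The values that changed sign follow, on the log2 scale. With relative log expression size factors it was -0.0122 for CDKN3 in TNPR vs TNBU. With library size alone it was -0.0243 for CDKN3 in TN vs Ctrl, -0.0187 for CDKN3 in TNPR vs TNBU, 0.00321 for CDKN2C in TNPR vs PRTN, 0.0281 for CDKN1B in TNBU vs BUTN and 0.028 for CDKN3 in TNBU vs BUTN. With the literal geometric mean it was -0.0161 for CDKN3 in TNPR vs TNBU. With edgeR it was 0.000494 for CDKN3 in the interaction. With DESeq2 it was -0.000253 for CDKN3 in TNPR vs TNBU. Leaving out 1 library at a time gave ranges across 0 of -0.225 to 0.00914 for CDKN2A and -0.161 to 0.228 for CDKN3 in TN vs Ctrl. They ran from -0.147 to 0.0119 for CDKN1A, -0.200 to 0.0153 for CDKN1B, -0.245 to 0.0831 for CDKN1C, -0.169 to 0.0191 for CDKN2A, -0.125 to 0.0169 for CDKN2C, -0.153 to 0.242 for CDKN2D and -0.204 to 0.203 for CDKN3 in TNPR vs TNBU. The ranges were -0.195 to 0.137 for CDKN1B, -0.0291 to 0.144 for CDKN2A, -0.0676 to 0.13 for CDKN2B, -0.354 to 0.026 for CDKN2D and -0.217 to 0.204 for CDKN3 in the interaction of timing and SCFA. They ran from -0.232 to 0.112 for CDKN1B and -0.00202 to 0.0285 for CDKN3 in PRTN vs BUTN. The ranges were -0.0898 to 0.0218 for CDKN1B, -0.232 to 0.0933 for CDKN1C, -0.0578 to 0.0199 for CDKN2C, -0.303 to 0.0414 for CDKN2D and -0.231 to 0.179 for CDKN3 in TNPR vs PRTN. They ran from -0.00845 to 0.0569 for CDKN2C in BUTN vs TN. The ranges were -0.169 to 0.161 for CDKN1B, -0.156 to 0.207 for CDKN2D and -0.176 to 0.129 for CDKN3 in TNBU vs BUTN.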

Other observations

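The genes that lie beside CDKN2A and CDKN2B on chromosome 9 were counted too. MTAP, the methylthioadenosine phosphorylase gene next to CDKN2A, had 72.7 ± 3.28 CPM (SD, n = 2) without TNF-α and 108 ± 2.13 CPM (SD, n = 2) with it alone, a log2 difference of 0.58 (adjusted p = 0.000628 from limma-voom) just under the fold threshold, and its values against TN in the 4 SCFA groups were -0.10 to 0.17. CDKN2B-AS1 (values against TN of -0.06 to 0.29) and CDKN2A-DT (0.01 to 0.20) were not called, and DMRTA1 was lower in all 4 SCFA groups (-0.72 to -0.59). Of 9 neighbours of CDKN1C on chromosome 11, 2 were called lower with either SCFA added first and 3 with either added later, among them TSSC4 each time (-0.89 to -0.69). Among all genes, 14.8% to 16.9% were called lower in these 4 comparisons with TN. KCNQ1OT1, the non-coding RNA of the imprinted domain, was at a mean of 0.0851 CPM.

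The genes most like each member over the 12 libraries, among 14983 genes with a mean of at least 1 CPM, are given as a description by Pearson r of log2(CPM + 0.5). The libraries with and without an SCFA form separate blocks, so r mostly ranks the size and evenness of that step. For CDKN1A they were HCN4 (0.997), KCTD11 (0.996) and SPANXN3 (0.996). For CDKN2D they were FAIM2 (0.998), ETNK2 (0.998) and NEURL1 (0.998), and for CDKN3 PRAF2 (0.988), ELOB (0.986) and AC005083.1 (0.985). CDKN1B was closest to AIMP1 (0.979), RBM4B (0.979) and SIX5 (0.976), CDKN1C to DAZAP1 (0.993), MCRIP2 (0.991) and CDK3 (0.991), and CDKN2A to CD151 (0.994), EPS8L1 (0.993) and a gene known only by a clone name (0.991). CDKN2B, with its peak in TN, was closest to WTAP (0.988), SOD2 (0.987) and DRAM1 (0.986), of which SOD2, the mitochondrial superoxide dismutase gene, is a known NF-κB target. CDKN2C had no close match, with 0.864 for XPC, 0.858 for SLC35B3 and 0.846 for CTD-2600O9.1.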
